A study of Homo sapiens with 24 samples.

Results

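Keratins are the intermediate filament proteins of epithelial cells, and their genes are used to tell luminal from basal cells of the breast. Nascent transcription of 10 keratin genes was followed here: KRT8, KRT18, KRT19, KRT7, KRT80, KRT23, KRT81, KRT5, KRT14 and KRT17. They were found by matching each Ensembl identifier to its gene symbol and taking the named keratins. The 10 are part of 55 protein-coding keratin genes among 60605 identifiers, of which 60463 had a symbol. Of the 10 genes, 6 passed the filter on low counts (KRT8, KRT18, KRT19, KRT7, KRT80 and KRT23) and 4 did not (KRT81, KRT5, KRT14 and KRT17). Of the other 45 keratin genes, 4 passed (KRT10, KRT15, KRT39 and KRT86), and 19 of the 55 had a median of 0 counts over the libraries.

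PRO-seq (precision run-on sequencing) maps the 3' ends of RNA still being made, so reads counted in a gene measure polymerases engaged on it and not its mature RNA. The cells were T47D, a line from a luminal, estrogen receptor positive breast cancer, in which the endogenous TRPS1 gene carries a dTAG degron that dTAG-13 uses to direct the protein to degradation. Clones 28, 35 and 39 each received either DMSO alone (0.1% by volume) or 100 nM dTAG-13 in DMSO for 90 minutes, in 4 replicates, which gives 6 groups and 24 libraries. A replicate is a separate round of treatment on a single day, so p-values measure the spread between these samples. Each group is a single clone of the same parent line, and in every clone, controls included, some copies of TRPS1 are knocked out and the protein made is tagged. A difference between the clones is therefore a difference between 3 individual cell lines. The libraries held between 3226718 and 9575803 counts (median 5042122).

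Keratins work as obligate pairs of a type I and a type II protein. KRT8 (type II) and KRT18 (type I) are the first pair of simple epithelia and, with KRT19 and KRT7, mark the luminal cells that line the ducts of the breast. KRT5 (type II) pairs with KRT14 (type I) in the basal layer, where KRT17 is also made, and these keratins mark basal-like tumors. KRT80 is a type II keratin found in many epithelia, KRT23 is a type I keratin, and KRT81 is a keratin of the hair shaft. Type II genes lie together on chromosome 12 and type I genes on chromosome 17, except KRT18, a type I gene that lies beside KRT8.

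The luminal identity of the cells was checked on marker genes. All 16 luminal markers passed the filter. With the clones pooled, the highest means were those of PGR at 1600 CPM (SD 414, n = 12 DMSO libraries, CPM being counts scaled to a common library size with TMM factors), ESR1 at 1570 (SD 211) and GATA3 at 831. PGR and ESR1 differed by less than their spread. The log2 difference of PGR was 0.70 for Clone 28 against Clone 35 and -0.61 for Clone 35 against Clone 39. PGR, ESR1 and GATA3 make up most of the summed level, not corrected for gene length, which in DMSO was 5770 CPM in Clone 28, 4790 in Clone 35 and 5470 in Clone 39, and the median of the list was 113 CPM. Of 11 basal or myoepithelial markers, 8 passed, led by CDH3 at 34.0 CPM (SD 6.16), while CNN1, CAV1 and SNAI2 had medians under 3 counts. Their summed levels were 118, 131 and 128 CPM in the same order of clones. Of 6 fibroblast markers 2 passed, led by COL1A1 at 12.7 CPM, with COL1A2, DCN and LUM under 3 counts and sums of 15.8, 19.3 and 20.7 CPM. Transcription of TRPS1 itself, which the degron leaves in place, was between 5183 and 8747 CPM in DMSO and between 6304 and 9296 CPM with dTAG-13. Its mean was higher with dTAG-13 in each clone, at 7270 beside 6250 CPM in Clone 28, 7610 beside 6690 in Clone 35 and 8270 beside 7390 in Clone 39. The fit without a term for the pairs of libraries gave an adjusted p of 0.733 (edgeR quasi-likelihood, Benjamini-Hochberg), and a paired value is not given here. Loss of the protein cannot be read from transcription of TRPS1.

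KRT8, KRT18, KRT19 and KRT7 were transcribed in every library, and the basal keratins KRT5, KRT14 and KRT17 were at or near 0. Per kb of gene span, the mean over the 12 DMSO libraries was highest for KRT19, at 69.9 CPM per kb (SD 2.57), followed by KRT18 at 26.4 (SD 5.06), KRT7 at 4.49 (SD 0.293), KRT80 at 4.32 (SD 0.736), KRT8 at 2.53 (SD 0.36) and KRT23 at 0.967 (SD 0.191). KRT7 and KRT80 are neighbours in that order whose levels differed by less than their spread. The place of KRT8 depends on which span is used. Its annotated gene is 52.768 kb long because of transcripts that start far upstream, and the same counts divided by the 7.886 kb of its MANE Select transcript, a span chosen after seeing the data, give 16.9 CPM per kb (SD 2.41). No reads were counted over that span itself. On the same basis KRT7 stood at 5.63 (SD 0.368) and KRT18 at 28.1 (SD 5.39). The counting window was not given in the sources used here.

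**Figure D1:**
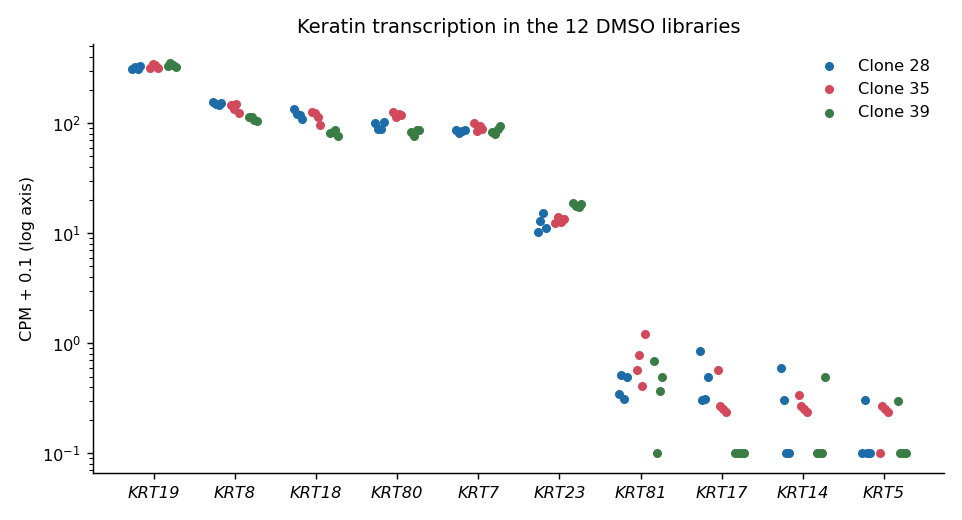
Transcription of the 10 keratin genes in the 12 DMSO libraries, in CPM plus 0.1 on a log axis, not corrected for gene length; each point is 1 library and the colors mark the clones. The 6 genes on the left lie above 10 CPM in every library, and KRT81, KRT17, KRT14 and KRT5 lie at or under 1.11 CPM.

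The basal keratins KRT5, KRT14 and KRT17 and the hair keratin KRT81 did not pass the filter on low counts and were not compared between groups. KRT5 had 9 counts in all 24 libraries together and 0 counts in 16 of them. KRT14 had 22 counts in all, with 11 libraries at 0, and KRT17 had 22 counts in all, with 9 libraries at 0. KRT17 had 0 counts in all 4 DMSO libraries of Clone 39 (17742018 counts of all genes), beside 7 counts in Clone 28 (18765008) and 5 in Clone 35 (23709891). This difference between the clones was not tested. KRT81 had 54 counts, between 0 and 8 per library. A count of 0 allows up to 3 counts, or 0.93 CPM in the smallest library, which covers counting error only. All 5.622 kb of KRT81 lie inside KRT86 on the opposite strand, and KRT86 had a median of 512 counts.

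Positions are those of GENCODE release 44 on hg38. On chromosome 12 lie KRT80 (ENSG00000167767, 52168996 to 52192014, minus strand), KRT7 (ENSG00000135480, 52232520 to 52252186, plus strand) and KRT8 (ENSG00000170421, 52897187 to 52949954, minus strand), with KRT18 (ENSG00000111057, 52948871 to 52952906, plus strand) at the upstream end of KRT8. On chromosome 17 lie KRT23 (ENSG00000108244, 40922700 to 40937646) and KRT19 (ENSG00000171345, 41523617 to 41528308), both on the minus strand. Several of these genes share sequence with a neighbour: KRT8 and KRT18 overlap on opposite strands over 1084 bases, KRT7 shares 2887 bases with KRT86 on the same strand, 2401 with the antisense gene KRT7-AS and 1721 with the pseudogene KRT87P, and KRT80 and KRT23 lie whole within antisense lncRNA genes, LINC00592 and ENSG00000234477. Whether the counting used strand was not stated. LINC00592, which spans all of KRT80, had a median of 97.5 counts beside 442.5 for KRT80, and ENSG00000234477, which spans all of KRT23, had 31.5 beside 73, so with these coordinates the opposite strands were counted apart. Reads of KRT7 and KRT86 in their shared bases on the same strand cannot be told apart.

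A promoter window of RefSeq (GRCh38.p14, from 250 bases before to 50 after the listed start) was matched for 2 of the 10 genes, KRT8 and KRT5; windows for KRT18, KRT19, KRT7, KRT80, KRT23, KRT81, KRT14 and KRT17 were not matched. Both are shown because they were the windows matched, for a transcribed luminal keratin and for a basal one with almost no reads. The KRT8 window is chr12:52926420-52926719 on the minus strand, with 50.7% GC. It lies far upstream of the MANE Select start at 52905076, and whether its start is used in these cells was not tested. The sequence at the MANE Select start of KRT8 was not examined. The KRT5 window is chr12:52520345-52520644 on the minus strand, with 56.3% GC. The median over all 35116 windows was 58.7% GC.
KRT8: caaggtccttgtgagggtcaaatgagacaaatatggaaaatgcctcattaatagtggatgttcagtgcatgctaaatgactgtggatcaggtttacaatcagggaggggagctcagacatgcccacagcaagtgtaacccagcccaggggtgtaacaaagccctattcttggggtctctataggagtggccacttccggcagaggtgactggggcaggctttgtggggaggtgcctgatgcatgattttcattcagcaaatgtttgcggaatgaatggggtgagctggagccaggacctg
KRT5: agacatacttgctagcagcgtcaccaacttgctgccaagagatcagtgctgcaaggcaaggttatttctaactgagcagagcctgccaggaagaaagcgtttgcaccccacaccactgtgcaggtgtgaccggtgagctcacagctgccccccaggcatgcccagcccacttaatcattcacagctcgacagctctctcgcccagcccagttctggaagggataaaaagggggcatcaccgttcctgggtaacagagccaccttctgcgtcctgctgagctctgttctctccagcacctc
No base is in capitals because neither window held a motif that was searched on both strands. These were GATA motifs (GATA with A or T before it and A or G after it, in 25.0% of all windows), AGGTCA of the estrogen receptor element (13.8%), the AP-1 motif TGACTCA (4.9%) and the TATA box TATAAA (11.5%). No match says only that these letters are not in these windows.

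Which keratins differ between the untreated clones was asked of the DMSO libraries, with the spread taken from all 6 groups. Of the 6 keratins that passed the filter, 4 differed between the clones (KRT8, KRT18, KRT80 and KRT23) at an adjusted p under the threshold of 0.1, and KRT19 and KRT7 did not (edgeR quasi-likelihood, Benjamini-Hochberg over 22326 genes). Of all genes tested, 6361 (28.5%) passed the same test. The main pattern was a lower level of the KRT8 and KRT18 pair in Clone 39, with the highest level of KRT23 in that clone and of KRT80 in Clone 35. Fewer transcribing cells and less transcription per cell cannot be told apart in such libraries.

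In DMSO, KRT8 was transcribed at 156, 151, 147 and 152 CPM in replicates 1 to 4 of Clone 28, at 146, 135, 149 and 123 CPM in Clone 35 and at 115, 114, 108 and 106 CPM in Clone 39. All 4 libraries of Clone 39 lay below all 8 of the other clones, whose values overlapped. KRT8 was higher in Clone 28 than in Clone 39 by 0.45 on the log2 scale (SE 0.079, adjusted p = 4.76e-05, edgeR quasi-likelihood, Benjamini-Hochberg) and higher in Clone 35 than in Clone 39 by 0.32 (SE 0.079, adjusted p = 0.00319). Between Clones 28 and 35 the log2 difference was 0.13 (SE 0.078, adjusted p = 0.488).

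KRT18, the partner of KRT8, was at 136, 121, 119 and 110 CPM in Clone 28, at 127, 124, 115 and 97.5 CPM in Clone 35 and at 82.2, 83.1, 87.5 and 75.9 CPM in Clone 39. The order of the clones was that of KRT8, and again no library of Clone 39 reached a library of another clone. The log2 difference from Clone 39 was 0.57 for Clone 28 (SE 0.084, adjusted p = 3.38e-06, edgeR's quasi-likelihood test) and 0.50 for Clone 35 (SE 0.084, adjusted p = 2.68e-05), and between Clones 28 and 35 it was 0.07 (SE 0.082, adjusted p = 0.792). The ratio of KRT8 to KRT18 counts, which is not corrected for length, was 1.25 (SD 0.0984, n = 4) in Clone 28, 1.2 (SD 0.0936) in Clone 35 and 1.35 (SD 0.0812) in Clone 39, and the ranges of the 3 clones overlapped. Across the 24 libraries, which share clones and replicate numbers, log2 CPM of the pair had a Pearson correlation of 0.885, and 0.629 after subtracting each group's mean. The annotated genes of the pair overlap over 1084 bases on opposite strands, and what the overlap adds to these values was not tested.

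KRT19, a type I keratin without the usual tail domain, was at 313, 327, 313 and 329 CPM in Clone 28, at 319, 344, 338 and 318 CPM in Clone 35 and at 329, 350, 337 and 322 CPM in Clone 39. KRT7, a type II keratin of simple and glandular epithelia, was at 86.8, 81.7, 85.8 and 87.8 CPM in Clone 28, at 100.0, 85.9, 93.9 and 89.0 CPM in Clone 35 and at 84.2, 79.5, 89.1 and 94.3 CPM in Clone 39. For both genes every pair of clones overlapped. Pairwise log2 differences lay between -0.062 and -0.02 for KRT19 (SE 0.052 each) and between -0.11 and 0.085 for KRT7 (SE 0.066 or 0.067), and the adjusted p for any difference was 0.678 and 0.437 (edgeR quasi-likelihood, Benjamini-Hochberg). In the dTAG-13 libraries of the same clones both genes did pass the test between clones (adjusted p = 0.0473 for KRT19 and 0.0118 for KRT7), with Clone 28 lowest, so that 6 of 6 keratins passed there, beside 27.5% of all genes.

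KRT80 separated all 3 clones. It was at 99.7, 88.0, 89.3 and 103 CPM in Clone 28, at 127, 114, 121 and 119 CPM in Clone 35 and at 83.8, 76.7, 87.2 and 86.3 CPM in Clone 39. No library of a clone reached the range of the next clone, with 88.0 in Clone 28 just above 87.2 in Clone 39. KRT80 was higher in Clone 35 than in Clone 39 by 0.52 (log2, SE 0.075, adjusted p = 1.90e-06, edgeR quasi-likelihood, Benjamini-Hochberg), and the log2 difference of Clone 28 from Clone 35 was -0.34 (SE 0.074, adjusted p = 0.00424). The step between Clones 28 and 39 was smaller, at 0.18 (SE 0.077, adjusted p = 0.0902). It no longer passed without replicate 1 (adjusted p = 0.192) or 4 (0.236) of Clone 28 in DMSO, without replicate 1 (0.114) or 2 (0.225) of Clone 39 in DMSO, with DESeq2 (0.133), with scaling by library totals (0.125), without a filter on low counts (0.108) or in the dTAG-13 libraries (0.333).

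KRT23, a type I keratin at a lower level, was at 10.2, 12.8, 15.3 and 11.2 CPM in Clone 28, at 12.4, 13.9, 12.7 and 13.4 CPM in Clone 35 and at 18.6, 17.8, 17.2 and 18.2 CPM in Clone 39. Here Clone 39 was the highest, with all 4 libraries above the other 8. The log2 difference from Clone 39 was -0.53 for Clone 28 (SE 0.14, adjusted p = 0.00505, edgeR's quasi-likelihood test) and -0.45 for Clone 35 (SE 0.14, adjusted p = 0.0164). KRT23 had between 41 and 116 counts per library, the fewest of the 6 genes.

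Taken pair by pair, 1 of the 6 keratins passed between Clones 28 and 35 (KRT80), where 5.25% of all genes tested did (1173, and 2664 with the replicate number as a block). Between Clones 28 and 39, 4 of 6 passed, 3 higher and 1 lower in Clone 28, beside 26.7% of all genes. Between Clones 35 and 39, 4 of 6 passed, 3 higher and 1 lower in Clone 35, beside 22.6% of all genes. These contrasts share groups and are not independent of each other.

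**Figure D2:**
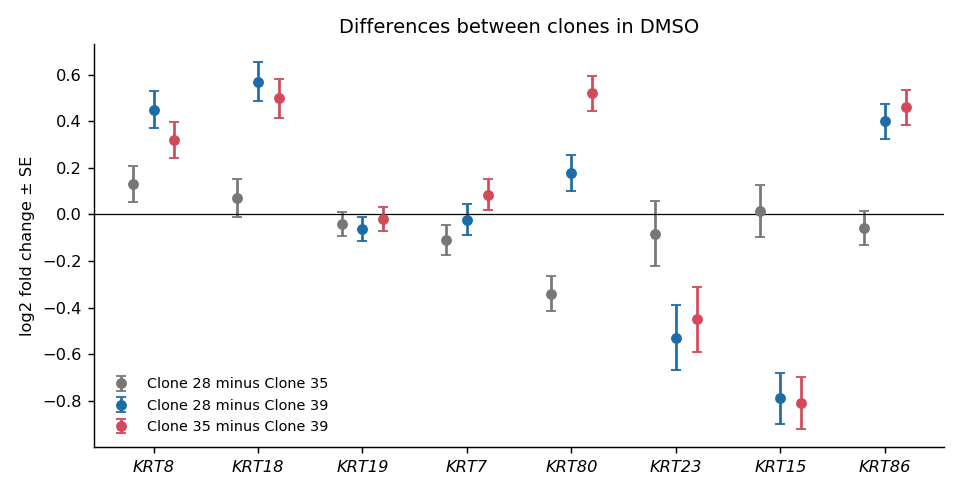
Log2 fold change between clones in DMSO with its standard error for 6 keratin genes and for KRT15 and KRT86, from 4 libraries per clone. KRT8, KRT18 and KRT86 lie above 0 and KRT23 and KRT15 below 0 in both contrasts with Clone 39, while KRT19 and KRT7 lie within 0.11 of 0.

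Of the 4 other keratin genes that passed the filter, KRT15 and KRT86 differed between clones in DMSO. KRT15, a type I keratin of basal and progenitor cells of stratified epithelia, lay between 103 and 132 CPM in Clone 28, between 94.3 and 131 in Clone 35 and between 159 and 240 in Clone 39, the last without overlap with the others. KRT15 was thus the one keratin of basal epithelium with appreciable counts, at 16.3 CPM per kb of gene span (SD 5.36). The same counts divided by its MANE Select span give 27.8. KRT15 lies at 41513745 to 41522529 on the minus strand of chromosome 17, just downstream of KRT19 (41523617 to 41528308) on the same strand. Whether polymerases running on from KRT19 add to the counts of KRT15 was not tested. The log2 difference of KRT15 from Clone 39 was -0.79 for Clone 28 (SE 0.11, adjusted p = 7.09e-06, edgeR's quasi-likelihood test). For Clone 35 it was -0.81 (SE 0.11, adjusted p = 5.20e-06, same test). KRT86, a hair keratin whose annotated gene takes in KRT81 and the end of KRT7, had 114 CPM (SD 9.42, n = 4) in Clone 28, 119 (SD 9.47) in Clone 35 and 86.0 (SD 11.2) in Clone 39, and its log2 difference from Clone 39 was 0.40 (SE 0.075, adjusted p = 1.02e-04) and 0.46 (SE 0.074, adjusted p = 1.23e-05). KRT10, a keratin of differentiated epidermis, had between 14.4 and 20.2 CPM in DMSO and did not pass (adjusted p = 0.926). KRT39 varied from 2.18 to 90.3 CPM between DMSO libraries and did not pass either (0.333), except without replicate 2 of Clone 39 in DMSO, its highest library (0.0749).

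Genes whose products hold or anchor the filaments were compared between the clones in the same way, gene by gene. Among desmosome and cytolinker genes 8 of 13 tested passed in DMSO, among hemidesmosome genes 3 of 7, and among the other intermediate filament genes 2 of 7 (5 with the replicate number as a block), beside 28.5% of all genes (39.7% with the block). DSP, the desmoplakin that ties keratin filaments to desmosomes, was lower in Clone 39 than in Clone 28 (log2 difference 0.50, SE 0.075, adjusted p = 4.57e-06, edgeR's quasi-likelihood test) and than in Clone 35 (0.39, SE 0.075, adjusted p = 1.63e-04). LAMA3, a laminin chain of the basement membrane, had log2 differences of 0.99 (SE 0.092) and 0.60 (SE 0.092) in the same contrasts, and DST, whose product binds filaments at hemidesmosomes, had 0.45 (SE 0.073) and 0.80 (SE 0.072). PKP2, a desmosomal plakophilin, went the other way between Clones 28 and 39 (-0.45, SE 0.13, adjusted p = 0.0164). The median log2 difference of the 13 desmosome genes was -0.000018 between Clones 28 and 39 and 0.11 between Clones 35 and 39, beside 0.0015 and -0.0015 over all genes, and that of the 7 hemidesmosome genes was -0.082 and -0.021. Of the 16 luminal markers 8 passed (13 with the block), of the 8 basal markers tested 6, and of the 2 fibroblast markers 0 passed in edgeR (0 at an unadjusted p under 0.05, 0 by DESeq2 and 1 with the block), and what these share with the keratins was not tested.

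The effect of dTAG-13 was asked with the 3 clones together. Every library is of a tagged clone, so loss of TRPS1 and another effect of dTAG-13 cannot be told apart here. KRT19 and KRT7 fell with dTAG-13, and KRT8, KRT18, KRT80 and KRT23 did not pass the test. Over all genes 123 passed, of which 43 (0.193%) were lower, and 2 of the 6 keratins were among these (edgeR quasi-likelihood, Benjamini-Hochberg). With a term for each of the 12 pairs of libraries of the same clone and number, 208 genes (0.932%) were lower among 521 that passed, and the same 2 keratins were. The count over all genes moved to 78 or 66 without replicate 3 or 4 of Clone 28 in DMSO, to 75 or 67 without replicate 1 or 2 of Clone 28 with dTAG-13, to 77 without replicate 3 of Clone 35 with dTAG-13 and to 80 without replicate 3 of Clone 39 in DMSO.

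With dTAG-13, KRT19 was at 274, 290, 290 and 265 CPM in Clone 28, at 301, 306, 318 and 299 CPM in Clone 35 and at 297, 297, 340 and 317 CPM in Clone 39. In Clone 28 all 4 treated libraries lay below the 4 in DMSO, in Clone 35 the highest treated value equalled the lowest in DMSO to the digits given, and in Clone 39 the groups overlapped. KRT19 was lower in 11 of 12 pairs, and replicate 3 of Clone 39 was the exception. The log2 fold change was -0.13 (SE 0.03, adjusted p = 0.0346, edgeR quasi-likelihood, Benjamini-Hochberg). Without any single library the adjusted p stayed between 0.0123 and 0.0934, whereas without Clone 28, 35 or 39 it was 1, 0.308 or 0.114, with log2 fold changes of -0.10, -0.15 and -0.15.

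KRT7 with dTAG-13 was at 70.5, 69.3, 80.4 and 70.6 CPM in Clone 28, at 87.2, 89.1, 83.0 and 89.1 CPM in Clone 35 and at 78.7, 71.3, 84.9 and 82.3 CPM in Clone 39. In Clone 28 every treated library was below every library in DMSO, and in the other clones the groups overlapped. KRT7 was lower in 10 of 12 pairs, the exceptions being replicates 2 and 4 of Clone 35. The log2 fold change was -0.15 (SE 0.039, adjusted p = 0.0955, edgeR quasi-likelihood, Benjamini-Hochberg), close to the threshold. Leaving out 1 library took the call away in 16 of 24 fits (adjusted p from 0.107 to 0.227): any DMSO replicate of Clone 28, replicates 1, 2 and 4 of Clone 28 with dTAG-13, replicates 1 and 3 of Clone 35 in DMSO, 1, 2 and 3 of Clone 35 with dTAG-13, 3 and 4 of Clone 39 in DMSO, and 1 and 2 of Clone 39 with dTAG-13. It also missed the threshold without Clone 28, 35 or 39 (1, 0.303 and 0.353), with RLE size factors (0.106), with library totals (0.114) and without a filter (0.142). The log2 fold change of KRT7 stayed between -0.16 and -0.13 without any single library. It was -0.11, -0.18 and -0.15 without Clone 28, 35 or 39, and -0.15 with RLE size factors, library totals or no filter.

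**Figure D3:**
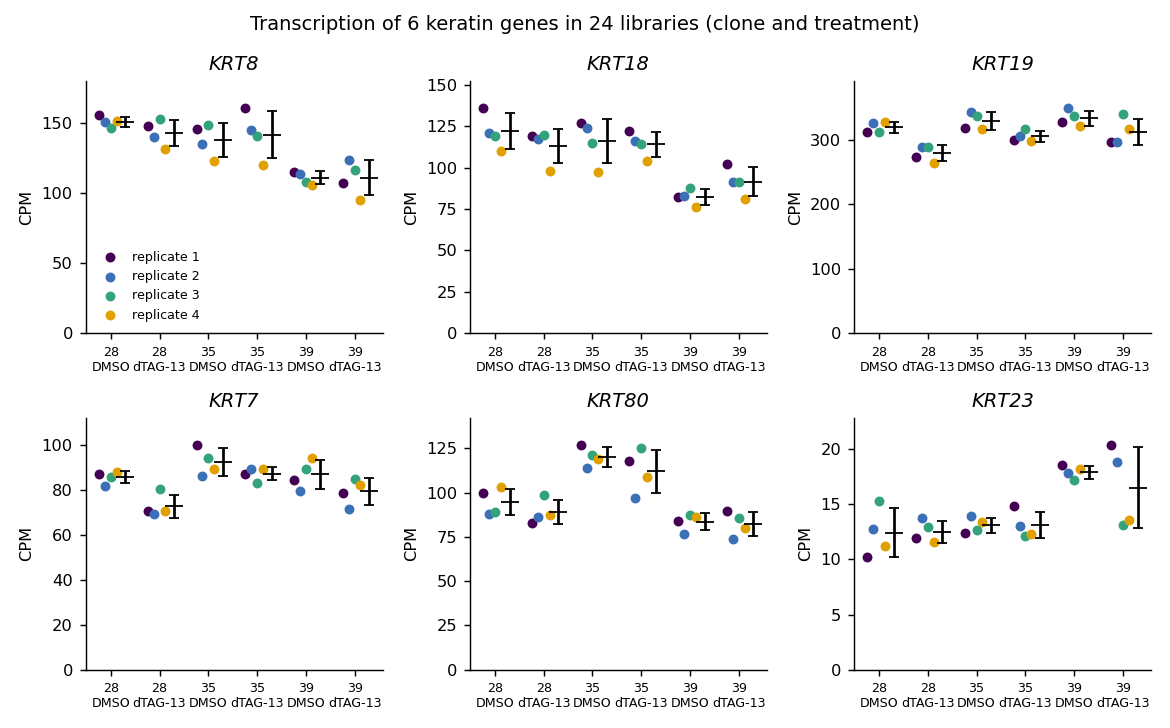
CPM of 6 keratin genes in the 24 libraries by clone and treatment; points are libraries colored by replicate number, and the black marks give the mean and SD of 4 libraries. KRT19 and KRT7 are lower with dTAG-13 in Clone 28 without overlap. KRT8 and KRT18 are lower in Clone 39 than in the other clones, without overlap in DMSO. With dTAG-13, Clone 39 overlaps Clone 35 for KRT8 and Clone 28 for KRT18.

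The pair KRT8 and KRT18 did not pass. With dTAG-13, KRT8 was at 148, 140, 153 and 132 CPM in Clone 28, at 161, 145, 141 and 120 CPM in Clone 35 and at 107, 124, 117 and 95.0 CPM in Clone 39. With dTAG-13, KRT18 was at 119, 117, 120 and 98.0 CPM in Clone 28, at 122, 116, 114 and 104 CPM in Clone 35 and at 102, 91.1, 91.2 and 80.9 CPM in Clone 39. Treated and untreated libraries overlapped in every clone for both genes. The log2 fold change was -0.015 for KRT8 (SE 0.044, lower in 7 of 12 pairs) and 0.0058 for KRT18 (SE 0.05, lower in 6 of 12), both at an adjusted p of 1 (edgeR's quasi-likelihood test). KRT18 was higher in all 4 pairs of Clone 39 (log2 fold change 0.15, SE 0.086) and lower in 3 of 4 pairs of Clone 28 (-0.099, SE 0.082), and the test of that difference between clones gave an unadjusted p of 0.114, or 0.00795 with the pairs in the model, and an adjusted p of 1 in both fits.

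With dTAG-13, KRT80 was at 82.9, 86.4, 98.6 and 87.4 CPM in Clone 28, at 118, 96.7, 125 and 109 CPM in Clone 35 and at 89.7, 73.6, 85.6 and 80.1 CPM in Clone 39. With dTAG-13, KRT23 was at 11.9, 13.8, 12.9 and 11.6 CPM in Clone 28, at 14.8, 13, 12.1 and 12.3 CPM in Clone 35 and at 20.4, 18.8, 13.1 and 13.6 CPM in Clone 39. Every treated group overlapped its control, and KRT23 in Clone 39 split into 2 high and 2 low libraries. The log2 fold change was -0.072 for KRT80 (SE 0.042, lower in 9 of 12 pairs, adjusted p = 0.905, edgeR's quasi-likelihood test) and -0.039 for KRT23 (SE 0.078, lower in 6 of 12, adjusted p = 1).

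**Figure D4:**
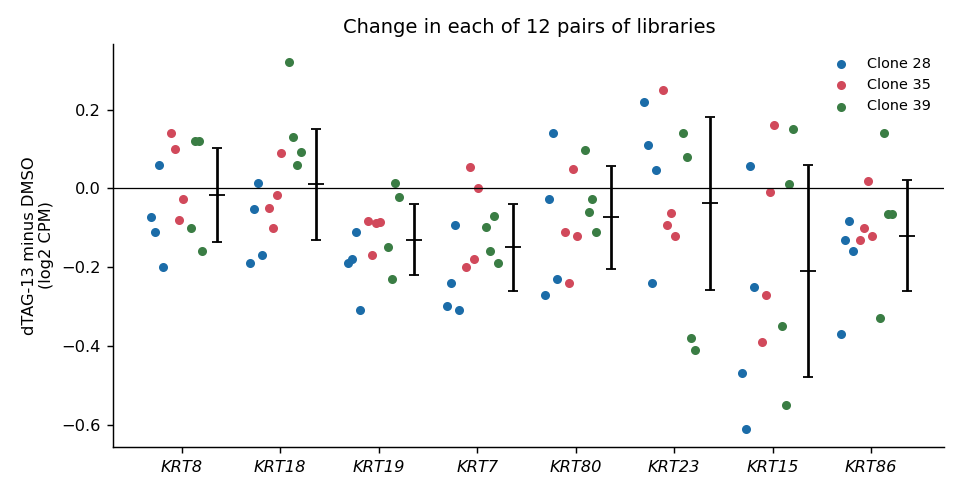
Difference in log2 CPM between the dTAG-13 and the DMSO library of the same clone and replicate number, 12 pairs per gene, colored by clone; black marks give the mean and SD over the pairs. For KRT19 11 pairs and for KRT7 10 pairs lie below 0, and for KRT18 6 pairs lie on each side.

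Within single clones 0 of the 6 keratins passed in edgeR's fit without pairs. At an unadjusted p under 0.05 there were 2 in Clone 28 (KRT19 and KRT7), 1 in Clone 35 (KRT19) and 0 in Clone 39. At the adjusted threshold DESeq2 gave 1, 0 and 0. In Clone 28, 12 genes passed (0.0537%), 10 higher and 2 lower, though 1078 of 22326 had an unadjusted p under 0.05. Scaling by library totals gave 20 higher and 2 lower in Clone 28, RLE size factors 5 and 2 and DESeq2 21 and 13. Clone 35 had 0 genes (0%), though 646 had an unadjusted p under 0.05 and DESeq2 gave 1, and Clone 39 had 0 as well (0%), though 754 had such a p and DESeq2 gave 1 (edgeR quasi-likelihood, Benjamini-Hochberg). With the pairs in the model the counts were 263, 21 and 16, and in Clone 28 KRT19 (log2 fold change -0.20, adjusted p = 0.00898) and KRT7 (-0.23, adjusted p = 0.0264) were 2 of 86 genes (0.385%) that were lower. DESeq2 also called KRT19 in Clone 28 (adjusted p = 0.0602), where edgeR without the pairs gave 0.278. In Clones 35 and 39 the log2 fold changes of KRT19 were -0.11 (SE 0.052) and -0.096 (SE 0.053), and those of KRT7 were -0.083 (SE 0.065) and -0.13 (SE 0.068). Whether a response to dTAG-13 differs between clones was tested directly, and 0 genes passed (0%) in edgeR, while 407 had an unadjusted p under 0.05, DESeq2 gave 0 and the fit with the pairs gave 1. Thus the size of the fall of KRT19 (unadjusted p = 0.352) and KRT7 (0.28) was not shown to differ between clones.

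Among the other keratins, 0 of 4 passed with treatment in edgeR and 0 by DESeq2, while 3 (KRT15, KRT39 and KRT86) had an unadjusted p under 0.05. Over all genes, 1411 of 22326 had such a p in edgeR. KRT86 had a log2 fold change of -0.12 (SE 0.042, adjusted p = 0.404, lower in 10 of 12 pairs) and passed with the pairs in the model (0.0494). KRT15 had -0.21 (SE 0.064, adjusted p = 0.258, lower in 8 of 12 pairs) and passed without replicate 4 of Clone 35 in DMSO (0.0842), without replicate 4 of Clone 39 in DMSO (0.075) and without a filter on low counts (2.00e-04). Of the genes that anchor the filaments, DST rose by 0.17 (SE 0.041, adjusted p = 0.0661), the single call among 7 hemidesmosome genes where 0.551% of all genes passed, while 0 of 13 desmosome genes (6 at an unadjusted p under 0.05) and 0 of 7 other intermediate filament genes (0 at such a p) passed in edgeR, and 0 of each by DESeq2. With the pairs in the model, PKP2 (0.21, SE 0.04) and PKP4 (0.10, SE 0.023) were higher, PLEC (-0.098, SE 0.029) and EPPK1 (-0.15, SE 0.047) were lower and LAMA3 (0.12, SE 0.032) was higher, where 2.33% of all genes passed. Of the luminal markers 1 of 16 passed (2 by DESeq2), SPDEF, an epithelial transcription factor, which fell (-0.14, SE 0.036, adjusted p = 0.0765), and 0 of 8 basal markers (2 at an unadjusted p under 0.05) and 0 of 2 fibroblast markers (0) passed in edgeR, with 0 of each by DESeq2. With the pairs AGR2, a luminal secretory gene, rose as well (0.19, SE 0.031). The medians of the desmosome, hemidesmosome and other filament lists were -0.021, -0.043 and -0.018, beside -0.0018 over all genes.

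The replicate number, which stands for a time of collection within a clone, moved with keratin transcription as well. Whether a number marks the same time in all 3 clones is not in the labels. With the 6 groups in the model, 3 of the 6 keratins differed between the 4 numbers, KRT18 (adjusted p = 2.34e-06), KRT8 (0.00125) and KRT80 (0.00643), where 8306 of all genes tested (37.2%) did so (edgeR quasi-likelihood, Benjamini-Hochberg). DESeq2 gave 5239 genes. The share of keratins is near that of all genes. The DMSO and dTAG-13 libraries of a clone and number were collected together, so the 24 libraries hold 12 collections, and p-values over all 24, which take them as independent, can be too small. Within the 12 DMSO libraries alone, 1 for each collection, KRT18 passed, and KRT8 (0.223) and KRT80 (0.16) did not, beside 30.3% of all genes that passed.

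KRT18 in replicate 4 was below its group's mean in 6 of 6 groups, by -0.17 on average (log2, SD 0.049, from -0.24 to -0.11), and KRT18 in replicate 1 was above it in 6 of 6 (0.11, SD 0.064). KRT8 was likewise low in replicate 4, in 5 of 6 groups (-0.13, SD 0.09). KRT80 instead was low in replicate 2, in 6 of 6 groups (-0.12, SD 0.06), as were KRT10 (-0.21, SD 0.15, 6 of 6) and KRT86 (-0.086, SD 0.085, 6 of 6), and KRT7 in 5 of 6 (-0.078, SD 0.064). KRT10 (adjusted p = 0.00439) and KRT86 (0.00959) passed the test over the numbers (edgeR quasi-likelihood, Benjamini-Hochberg), and KRT10 did not in the DMSO libraries alone (0.21). KRT19 had a narrow pattern, with replicate 1 below the mean in 6 of 6 groups by -0.038 (SD 0.019). KRT19 and KRT7 did not pass the test over the numbers (adjusted p = 0.133 and 0.164, edgeR's quasi-likelihood test), though KRT19 did without replicate 3 of Clone 28 in DMSO (0.0537) or replicate 2 of Clone 39 with dTAG-13 (0.0591), and KRT7 without replicate 2 (0.0653) or 3 (0.0672) of Clone 35 with dTAG-13. With scaling by library totals both passed (0.023 and 0.0272), and without a filter KRT7 did (0.0969).

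Set as a contrast of numbers 3 and 4 against 1 and 2, which earlier results of these data had brought up, 3 of the 6 keratins passed, beside 40.8% of all genes (4627 higher and 4481 lower, or 6199 and 3242 with scaling by library totals). KRT18 in numbers 3 and 4 differed from 1 and 2 by -0.15 (SE 0.03, adjusted p = 8.89e-05, edgeR quasi-likelihood, Benjamini-Hochberg) and KRT8 by -0.095 (SE 0.032, adjusted p = 0.0165), in 6 of 6 groups each by the group means, with 3 groups for KRT18 and 2 for KRT8 free of overlap. Replicate 3 was near replicate 2 in both genes (mean deviations 0.025 and 0.033 for KRT18, 0.036 and 0.031 for KRT8), and replicate 4 was the low one. KRT8 lost its call in the DMSO libraries alone (-0.063, adjusted p = 0.246), with library totals (-0.057, 0.163) and without a filter on low counts (-0.062, 0.242). KRT10 was higher in numbers 3 and 4 by 0.29 (SE 0.07, adjusted p = 6.81e-04). KRT80 was higher by 0.071 (SE 0.033, adjusted p = 0.086) and lost its call in 8 of the 24 fits without a library (adjusted p from 0.118 to 0.206): replicate 4 of Clone 28 in DMSO, replicates 1 and 3 of Clone 28 with dTAG-13, 2 and 3 of Clone 35 with dTAG-13, 1 and 4 of Clone 39 in DMSO, and 2 of Clone 39 with dTAG-13. The call of KRT80 was also lost with DESeq2 (0.267), RLE size factors (0.12), at least 10 counts in every library (0.131) and the DMSO libraries alone (0.553, at a difference of 0.038). Within the clones, a comparison chosen after seeing the data in which 14.4%, 12.1% and 12.7% of all genes passed in Clones 28, 35 and 39, KRT18 passed in Clone 35 (-0.18, SE 0.063, adjusted p = 0.0639) and KRT7 in Clone 39 (0.16, SE 0.06, adjusted p = 0.0937), and in Clone 28 edgeR gave 0, with KRT18 at an unadjusted p of 0.0337. The difference of this contrast between clones gave 0 genes in edgeR, and 839 had an unadjusted p under 0.05; DESeq2 was not run on it.

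**Figure D5:**
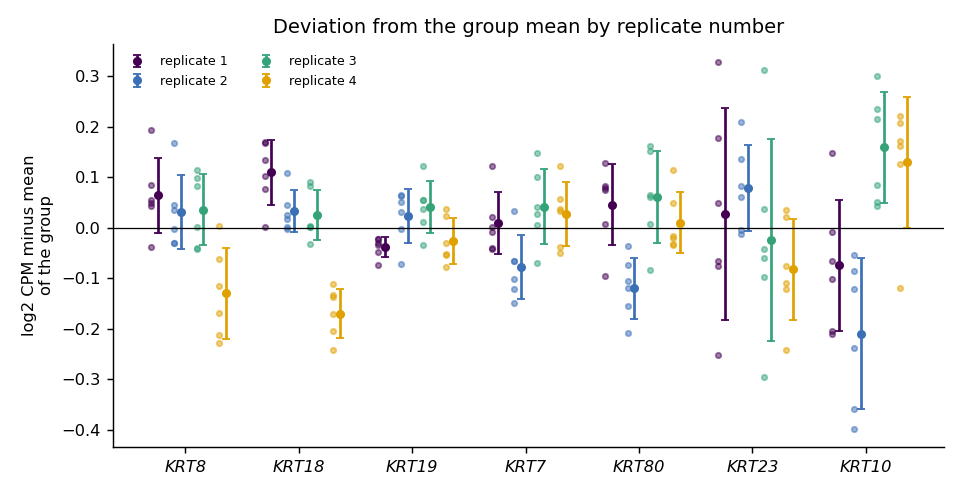
Log2 CPM minus the mean of the library's own group, by replicate number, for 6 keratin genes and KRT10; small points are the 6 groups and large points their mean with SD. Replicate 4 is below 0 in 6 of 6 groups for KRT18, and replicate 2 is below 0 in 6 of 6 groups for KRT80 and KRT10.

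The genes whose transcription was most like that of each keratin were sought among 12532 genes by the Pearson correlation of log2 CPM over the 24 libraries, as a description; the libraries share clones, treatments and replicate numbers. For KRT8 they were EPB41L1 and CLU (0.902 each), and for KRT18 ITGB5 (0.91) and EPB41L1 (0.908), so that EPB41L1, a protein 4.1 family member of the membrane skeleton, stood near both. KRT19 was nearest to RBBP8NL (0.835) and SLC2A6 (0.786), and KRT7 to SCNN1A (0.755), a subunit of the epithelial sodium channel, and CACNG4 (0.754). KRT80 was nearest to TRPV3 (0.907) and RASEF (0.884), and KRT23 to DRAM2 (0.835) and LINC01725 (0.832). After subtracting group means these correlations lay lower, between 0.404 for KRT7 with SCNN1A and 0.698 for KRT18 with ITGB5. Among the keratins, KRT80 and KRT86 had 0.8 (0.49 after the group means were subtracted), KRT18 and KRT86 0.75 (0.159), KRT8 and KRT86 0.734 (0.135), KRT8 and KRT15 -0.696 (0.302), and KRT19 and KRT7 0.61 (0.065).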

How the data were processed

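The 6 groups follow the labels of clone and treatment. The authors trimmed reads with cutadapt 1.8.1, removed PCR duplicates by unique molecular identifiers (fqdedup), reverse complemented the reads (seqtk), removed ribosomal DNA reads, aligned with Bowtie2 2.4.4 and SAMtools 1.9 to hg38 (versions and build from the submitters' processing notes) and used bedtools to count over genes. The annotation, counting window and strand setting were not given in the sources used here. The table deposited by the authors holds raw counts for each identifier, and 7268 identifiers had no read in any library.

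Names and coordinates came from GENCODE release 44. Counts were fitted in R 4.3.3 with edgeR 4.0.16 (filterByExpr on the 6 groups with a minimum count of 10, TMM scaling, robust quasi-likelihood F tests, Benjamini-Hochberg adjustment over 22326 genes, threshold 0.1). Treatment over the 3 clones used a model of clone plus treatment, and within clones, between clones and for the difference of responses with the 6 groups (18 residual degrees of freedom). The replicate number was added to the 6 groups for its own test. CPM are TMM scaled. The prior count for log2 CPM was 2.

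The study states that DMSO and dTAG-13 cells were collected simultaneously, and the labels give clone and number. Libraries of the same clone and number were paired on this basis. Their deviations from the group means correlated by 0.185 on average (from 0.0926 to 0.3179 over 12 pairs). Between replicates the chi-square divided by its degrees of freedom was 1.644 to 13.57 over 36 pairs, so the spread between replicates exceeded counting error and no replicate looked like a copy of another of its group.

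Genes named were the 10 keratins, TRPS1, other keratins past the threshold, up to 3 genes per direction of each list by p-value, and for each of the 10 with a median of at least 50 counts the 2 most correlated genes with a mean log2 CPM of at least 4. Among the other keratins, those below the threshold were named after their values were seen. The keratins, the lists and the contrast of replicate numbers were chosen with earlier results of these data known. Alternatives were RLE size factors, library totals, no filter, a floor of 10 counts per library, a threshold of 0.05, DESeq2 1.42.0, a block (the 12 pairs for treatment, the replicate number between clones), the DMSO or dTAG-13 libraries alone, and leaving out each library or clone.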

Additional observations from a re-analysis of the deposited data

Results flagged for a closer look

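Among 60 sets of 4 replicate libraries (10 keratin genes that passed the filter, in 6 groups), 5 held a library whose gap to the nearest of the others was larger, as a share of the range, than Dixon's 95% limit allows. Chance gives about 1 in 20 sets, or 3 of 60. KRT18 was at 98.0 CPM in replicate 4 of Clone 28 with dTAG-13, where the other 3 libraries were between 117 and 120. KRT7 was at 80.4 CPM in replicate 3 of the same group, above 69.3 to 70.6 in the others, and KRT15 was at 107 CPM in that same library, above 86.0 to 88.4. KRT10 was at 13.9 CPM in replicate 2 of Clone 39 with dTAG-13, below 19.0 to 19.9. KRT39 was at 90.3 CPM in replicate 2 of Clone 39 in DMSO, above 2.18 to 11.0. The cause was not tested.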

How the results depend on the processing

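The differences of KRT8, KRT18, KRT80 and KRT23 between clones in DMSO passed the threshold in all 32 settings tried, 1 of which used the dTAG-13 libraries instead. For treatment with the 3 clones together, 2 keratins passed; 1 did so at a threshold of 0.05, with library totals, with RLE size factors and without a filter, 0 without Clone 28, 0 without Clone 35 and 0 without Clone 39, and between 1 and 2 without any single library. All genes passing numbered 123, and 64 at a threshold of 0.05, 197 without a filter, 521 with a term for each pair, 1 without Clone 28, 37 without Clone 35 and 37 without Clone 39, and from 66 to 149 without any single library. Within Clone 28, 0 keratins passed, against 1 with DESeq2 and 2 with the pairs. For the replicate number 3 passed, 1 in the DMSO libraries alone and 5 with library totals, and DESeq2 gave 5239 genes against 8306. For numbers 3 and 4 against 1 and 2, 3 passed, 1 in the DMSO libraries alone, and 0, 1 and 1 within Clones 28, 35 and 39. Between Clones 28 and 35, 1 passed in DMSO and 2 in the dTAG-13 libraries. Apart from the stricter threshold and the fits on fewer libraries, the cause was not tested.

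Of the treatment values that did not pass, some changed sign. KRT8 was between -0.039 and 0.0045 without single libraries and 0.018 without Clone 28, KRT18 between -0.018 and 0.03 and -0.058 without Clone 39, KRT23 was 0.0048 without Clone 39 and KRT10 -0.02 without Clone 28. KRT18 in Clone 35 was between -0.097 and 0.023. The pairs gave adjusted p = 0.00532 for KRT7 and 4.62e-04 for KRT19 with the 3 clones together (edgeR's quasi-likelihood test), and apart from the calls named beside their results neither they nor the replicate number as a block between clones changed another call of a keratin. Depth limits KRT5, KRT14, KRT17 and KRT81, with at most 8 counts per library.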

Other observations

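KRT15, singled out after its values were seen, had replicates 3 and 4 below 1 and 2 in DMSO in each clone, and in none of the clones with dTAG-13. In DMSO, replicates 1 to 4 were at 123, 132, 103 and 103 CPM in Clone 28, at 131, 122, 110 and 94.3 CPM in Clone 35 and at 215, 240, 185 and 159 CPM in Clone 39. Replicates 3 and 4 were below replicates 1 and 2 in all 3 clones without overlap, and the share of all genes doing so was not counted. With dTAG-13, KRT15 was at 88.4, 86.0, 107 and 87.0 CPM in Clone 28, at 99.9, 101, 109 and 106 CPM in Clone 35 and at 168, 165, 186 and 176 CPM in Clone 39, with replicates 3 and 4 above 1 and 2 without overlap in Clones 35 and 39. The paired log2 difference was thus lowest at -0.61 and highest at 0.16. For KRT15 the test over replicate numbers gave an adjusted p of 1.08e-09 in the 12 DMSO libraries (edgeR's quasi-likelihood test). In those libraries 30.3% of all genes passed this test. With all 24 libraries the adjusted p of KRT15 was 0.323 by the same test. A difference in response between numbers was not tested.

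KRT39 lies on chromosome 17 from 40958417 to 40966948. Its counts ran from 4 to 537 per library, with 83.1 CPM in replicate 3 of Clone 35 in DMSO and 90.3 CPM in replicate 2 of Clone 39 in DMSO as the highest, while KRT10 and KRT23 on the same chromosome stayed between 13.1 and 23.2 and between 10.2 and 20.4 CPM. In the 12 dTAG-13 libraries KRT39 was between 0.772 and 20.7 CPM.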
